A study of Mus musculus with 39 samples.

Results

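Glycolysis was examined here through 10 genes, which carry glucose from its uptake to lactate: Slc2a1, Hk2, Pfkp, Aldoa, Tpi1, Gapdh, Pgk1, Eno1, Pkm and Ldha. They were taken by symbol from both deposited expression tables, and all 10 were found among the 28023 gene symbols each table lists. C57BL/6 wild-type mice, whose age is not given in the sources used here, had been colonised by faecal microbiota transplantation (FMT) with stool of human volunteers. The stool had been exposed for 6 days to CZA, which the labels name only by this abbreviation, or to CZA together with DAV132, an adsorbent directed to the colon. After 2 weeks the mice were implanted under the skin with MCA-205, a fibrosarcoma line of the same strain, and from a tumour size of 25 to 35 mm2 they were given 4 doses of 250 µg of anti-PD-1 or of an isotype control antibody. Anti-PD-1 blocks an inhibitory receptor on T cells. The 4 groups were therefore CZA with isotype, CZA with anti-PD-1, CZA+DAV132 with isotype and CZA+DAV132 with anti-PD-1, and every mouse had received stool exposed to CZA. In one experiment CD8+ T cells were sorted from the tumours, which gave 20 libraries, 5 in each group. Another, run the same way with the same stool, gave 19 libraries labelled bulk tumour, 5 in each group except 4 for CZA+DAV132 with isotype. The labels do not tie the libraries to separate mice, and the stool of an arm was not replicated, so each p-value below measures the spread between libraries only.

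Glucose enters T cells through membrane transporters of the Slc2a family, is trapped by hexokinase and is committed to glycolysis by phosphofructokinase. The lower enzymes then split the sugar and yield ATP, NADH and pyruvate, which lactate dehydrogenase reduces to lactate. T cells that are activated through their receptor are known to raise this pathway, and the transcription factors HIF-1 and MYC, which bind DNA at short sites containing CGTG, drive many of its genes.

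The results below set enzymes of lower glycolysis (Ldha, Pgk1 and Eno1), which fell in one comparison, beside Hk2, the entry enzyme, which did not pass there. The sequences just upstream of their start sites are therefore shown for these 4 genes. They are the 250 bases before the first start site that RefSeq lists for each gene on GRCm38.p6, 5′ to 3′ on the strand of the gene. Capitals mark ACGTG or GCGTG on either strand, so that CACGT and CACGC are the same motifs read from the other strand, and CACGTG, the E-box, holds ACGTG on both strands.
Ldha, chr7:46845554-46845803, plus strand: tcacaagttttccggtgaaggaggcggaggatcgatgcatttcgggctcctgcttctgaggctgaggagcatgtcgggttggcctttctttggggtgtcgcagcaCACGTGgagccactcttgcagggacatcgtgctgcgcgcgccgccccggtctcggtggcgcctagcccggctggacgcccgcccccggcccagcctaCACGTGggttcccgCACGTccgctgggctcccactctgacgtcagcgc
Pgk1, chrX:106186850-106187099, plus strand: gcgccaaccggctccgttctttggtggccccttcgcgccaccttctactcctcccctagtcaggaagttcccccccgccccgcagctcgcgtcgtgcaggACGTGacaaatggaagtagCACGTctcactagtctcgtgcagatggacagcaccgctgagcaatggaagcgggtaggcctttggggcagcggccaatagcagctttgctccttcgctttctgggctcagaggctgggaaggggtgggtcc
Eno1, chr4:150236458-150236707, plus strand: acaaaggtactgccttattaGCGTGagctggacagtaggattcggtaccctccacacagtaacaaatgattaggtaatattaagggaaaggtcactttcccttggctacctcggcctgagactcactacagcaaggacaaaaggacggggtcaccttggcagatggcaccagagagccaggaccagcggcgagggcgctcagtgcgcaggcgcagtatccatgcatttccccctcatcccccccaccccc
Hk2, chr6:82774455-82774704, minus strand: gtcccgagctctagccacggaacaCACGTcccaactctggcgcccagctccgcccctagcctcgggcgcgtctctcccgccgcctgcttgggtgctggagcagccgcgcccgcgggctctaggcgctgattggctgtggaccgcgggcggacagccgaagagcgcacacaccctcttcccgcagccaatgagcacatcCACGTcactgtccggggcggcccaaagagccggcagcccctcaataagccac

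Matches were counted on both strands, so each of the 2 E-boxes in the Ldha window gave 2 matches of ACGTG. Counted in this way, ACGTG was matched 5 times in the Ldha window, 2 times in that of Pgk1, 2 times in that of Hk2 and 1 time in that of Slc2a1. Among all 32851 promoter windows of the same length, 16.6% held at least 1 ACGTG and 0.134% held 5 or more, while 6.02% held the E-box. The other motif, GCGTG, which 28.2% of all windows held, was matched 3 times for Pfkp, 2 times for Gapdh and 1 time each for Slc2a1 and Eno1. Neither motif was found in the first window of Aldoa, Tpi1 or Pkm. The windows of further start sites that RefSeq lists held ACGTG 1 time each at the second and the third of Aldoa and the second of Pkm, and GCGTG 2 times each at the second and the third of Eno1 and 1 time at the second of Ldha. A match is a description of these letters and was not tied to binding of any factor. The genes that fell and those that did not pass both included first windows with and without ACGTG, as the values below show.

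Levels are given as TPM, an estimate of transcript abundance scaled by transcript length and to a fixed library total, on which genes of one library can be compared. TPM holds no read counts, so depth is unknown. In the CD8+ T cells the medians over 20 libraries placed Gapdh, which oxidises glyceraldehyde phosphate and yields NADH, at the top with 1764 TPM. Eno1, the enolase, had a median of 721 TPM and Ldha, which makes lactate, 666 TPM. The range of Eno1, 201 to 1286 TPM, covered that of Ldha, 166 to 1286 TPM, almost whole, although Eno1 lay above Ldha within 17 of the 20 libraries. Aldoa, the aldolase that splits the sugar, had a median of 467 TPM. Pkm, the pyruvate kinase, Tpi1, the isomerase that interconverts the triose phosphates, and Pgk1, which makes ATP, had medians of 242, 220 and 215 TPM, and their ranges overlapped. Within libraries Pkm lay above Tpi1 in 15 of 20 and above Pgk1 in 19 of 20, and Tpi1 lay above Pgk1 in 13 of 20. Pfkp, the platelet-type phosphofructokinase, stood at 66.3 TPM, Slc2a1, the glucose transporter GLUT1, at 15.0 TPM and Hk2, the inducible hexokinase, at 8.54 TPM. The first steps of the pathway therefore had the lowest transcript levels.

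The libraries labelled bulk tumour had a like order, with medians of 2940 TPM for Gapdh, 630 TPM for Ldha, 587 TPM for Aldoa, 518 TPM for Eno1, 21.2 TPM for Slc2a1 and 12.1 TPM for Hk2. The tables may have been scaled separately, so levels are not tested across them. For Cd8a, which encodes part of the CD8 co-receptor, the median was 352 TPM in these libraries against 268 TPM in the sorted cells, and Cd3e, a chain of the T cell receptor complex, 419 against 750 TPM. Among the markers of fibroblasts and fibrosarcoma, the collagen gene Col1a1 had medians of 13.0 and 3.39 TPM, Col3a1 6.63 and 6.04 TPM, and Thy1 572 and 251 TPM. All other markers of that list had lower medians in the libraries labelled bulk tumour, such as Col1a2 (7.41 against 10.4 TPM) and Sparc (13.7 against 16.1 TPM). Markers of T cells were thus at high levels in the libraries labelled bulk tumour too, and they are called by that label here. In any of these libraries, fewer cells of a type and less RNA per cell cannot be told apart.

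A feature of the libraries touches every result. A set of 18 listed genes whose transcripts consist largely of satellite or simple repeats took 28.3% ± 23.7 (SD, n = 5) of TPM in the CD8+ T cells of CZA+DAV132 with anti-PD-1, with 69.2% in library 19 and 28.1% in library 16. Their share was 4.28% ± 2.62 in CZA+DAV132 with isotype, 9.53% ± 9.97 in CZA with isotype and 9.19% ± 4.72 in CZA with anti-PD-1 (n = 5 each). In the libraries labelled bulk tumour, T026 of CZA+DAV132 with anti-PD-1 stood at 50.4% and T985 of CZA with isotype at 13.8%, and the other libraries at 0.777% or less. Since TPM sums to a fixed total, a library rich in these entries has less TPM left for every other gene. The main comparisons were therefore also made with the 18 entries left out and TPM rescaled, and without libraries 16 and 19.

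The first comparison set anti-PD-1 against isotype among sorted cells of the CZA+DAV132 arm. Ldha, Tpi1, Pgk1, Eno1 and Pkm, all enzymes of lower glycolysis, fell, while Slc2a1 and Hk2 at the entry of the pathway lay close to the isotype level. Of the 10 genes, 5 passed as lower and 0 as higher, where 19.4% of the 12942 genes tested passed as lower, 4.12% as higher and 23.5% in either direction. The median log2 change was -0.79 over the 10 genes and -0.34 over all genes tested. All 10 point estimates were negative. Calls rest on limma with Benjamini-Hochberg adjustment at 0.05, on the log2(TPM + 1) scale, where changes of low genes come out too small.

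**Figure D1:**
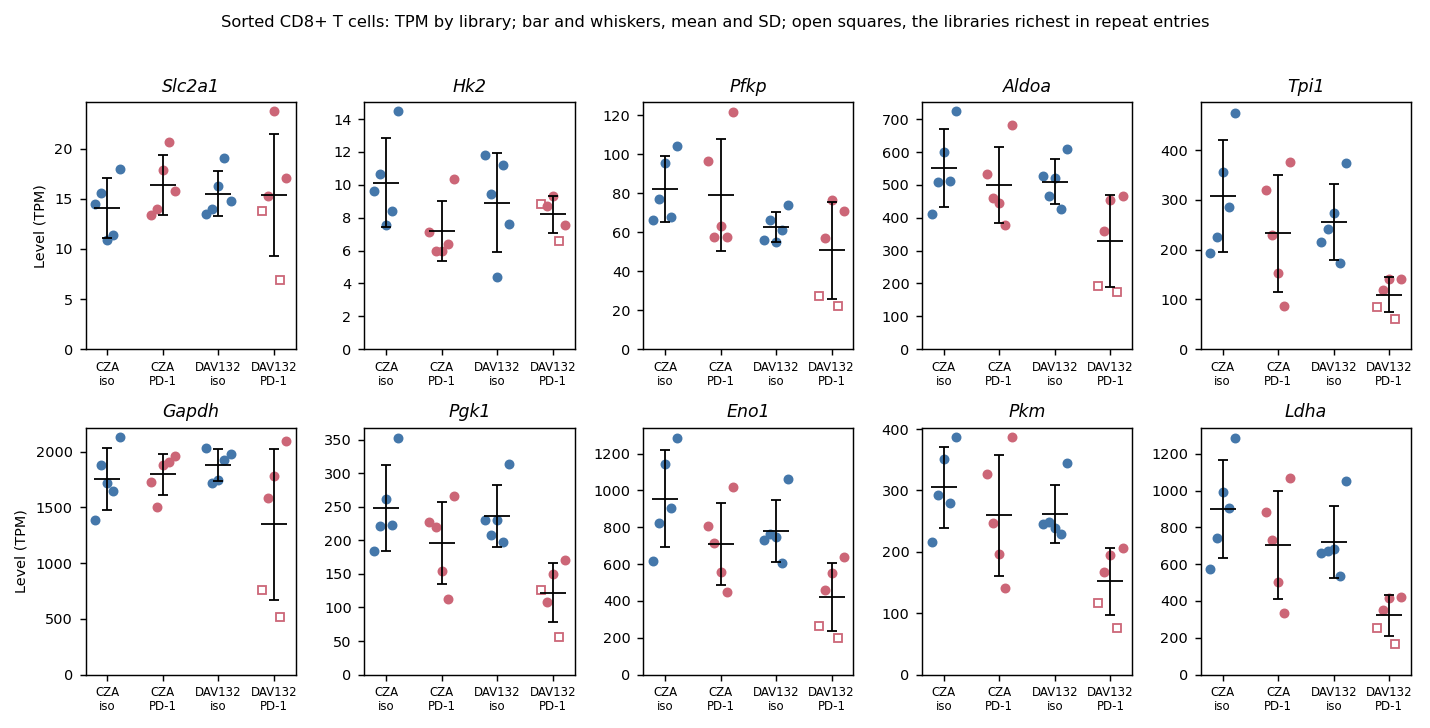
Level in TPM (vertical axes, from 0) of each of the 10 genes in 20 libraries of CD8+ T cells, by group, where DAV132 stands for CZA+DAV132; points are libraries, bars and whiskers the mean and SD, and open squares libraries 16 and 19. For Ldha the 5 libraries of CZA+DAV132 with anti-PD-1 lay at 166 to 421 TPM, below all 5 of its isotype group.

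Ldha stood at 663, 670, 682, 537 and 1052 TPM in the isotype libraries of the CZA+DAV132 arm and at 254, 348, 419, 166 and 421 TPM under anti-PD-1. Every anti-PD-1 library was below every isotype library, and library 19 was the lowest. The log2 change was -1.21 (SE 0.32, adjusted p = 0.0138, limma). With the repeat entries left out, the anti-PD-1 libraries held 354, 424, 491, 539 and 476 TPM of Ldha against 586 to 1077 TPM under isotype. These levels were rescaled by the repeat share alone. The fit brought the remaining entries of each library to the same total, so the fitted levels differ somewhat. The groups still did not overlap, library 19 became the highest of its group, and the log2 change was -0.66 (SE 0.23, adjusted p = 0.0528, limma). Without libraries 16 and 19 it was -0.83 (adjusted p = 0.0937).

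Tpi1 stood at 215, 242, 273, 173 and 374 TPM under isotype and at 85.7, 118, 142, 60.4 and 141 TPM under anti-PD-1. The groups did not overlap. The log2 change of Tpi1 was -1.24 (SE 0.36, adjusted p = 0.0190, limma), -0.70 (adjusted p = 0.101) with the repeat entries left out and -0.88 (adjusted p = 0.134) without libraries 16 and 19.

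Pgk1, the first ATP-yielding enzyme, stood at 230, 209, 231, 197 and 314 TPM under isotype and at 126, 107, 151, 56.0 and 171 TPM under anti-PD-1, again with no overlap. Its log2 change was -1.02 (SE 0.29, adjusted p = 0.0179, limma), -0.48 (adjusted p = 0.0677) with the repeat entries left out and -0.73 (adjusted p = 0.0776) without libraries 16 and 19.

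Eno1 stood at 728, 765, 749, 605 and 1060 TPM under isotype and at 262, 459, 550, 201 and 636 TPM under anti-PD-1. Here the groups overlapped, since library 20 exceeded the lowest isotype library. The log2 change of Eno1 was -0.995 (SE 0.31, adjusted p = 0.0265, limma), against -0.45 (adjusted p = 0.123) with the repeat entries left out and -0.50 (adjusted p = 0.205) without libraries 16 and 19.

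Pkm stood at 245, 248, 239, 229 and 345 TPM under isotype and at 116, 167, 195, 75.8 and 206 TPM under anti-PD-1, without overlap. Its log2 change was -0.85 (SE 0.30, adjusted p = 0.0405, limma), against -0.31 (adjusted p = 0.280) with the repeat entries left out and -0.45 (adjusted p = 0.255) without libraries 16 and 19. In all, 4 of the 10 genes had groups that did not overlap in this comparison (Tpi1, Pgk1, Pkm and Ldha), beside 14.9% of all genes tested.

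The other 5 genes did not pass. Aldoa had a log2 change of -0.74 (SE 0.28, adjusted p = 0.0564, limma), and its levels were 428 to 610 TPM under isotype and 175 to 467 TPM under anti-PD-1. Gapdh had -0.66 (SE 0.30, adjusted p = 0.107), with 1715 to 2031 TPM under isotype and 755, 1586, 1780, 520 and 2093 TPM under anti-PD-1. Only libraries 16 and 19 of Gapdh lay far below the isotype range, and library 20 lay above it. Pfkp had a log2 change of -0.45 (95% interval -1.09 to 0.19), Slc2a1 of -0.10 (-0.61 to 0.42) and Hk2 of -0.05 (-0.54 to 0.44). Slc2a1 stood at 13.5, 14.0, 16.3, 19.0 and 14.8 TPM under isotype and at 13.7, 15.3, 23.8, 6.86 and 17.1 TPM under anti-PD-1, so that library 18 was the highest of all 20 and library 19 the lowest.

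These calls depended on how the repeat-rich libraries were treated. With the 18 repeat entries left out and TPM rescaled, 0 of the 10 genes passed in limma. Without libraries 16 and 19 also 0 passed, a setting chosen after seeing the data. Leaving out library 19 alone gave 2 calls, leaving out library 16 alone 3, and leaving out library 15 of the isotype group 1. The share of all genes passing in these leave-one-out fits is not given here, so their counts cannot be read as particular to the 10 genes. The median over all genes moved from -0.34 to 0.05 with the rescaling, where 1414 genes passed as higher and 1207 as lower, against 533 and 2509 on TPM as deposited. Under median-ratio scaling, which put the median of all genes close to 0 and gave 1470 genes higher and 1828 lower, 3 of the 10 passed: Ldha at -0.73, Pgk1 at -0.54 and Eno1 at -0.52. In these rescaled fits Slc2a1 (0.41 and 0.35) and Hk2 (0.45 and 0.39) pointed upward and did not pass, and Pfkp lay at 0.08 and 0.02.

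**Figure D2:**
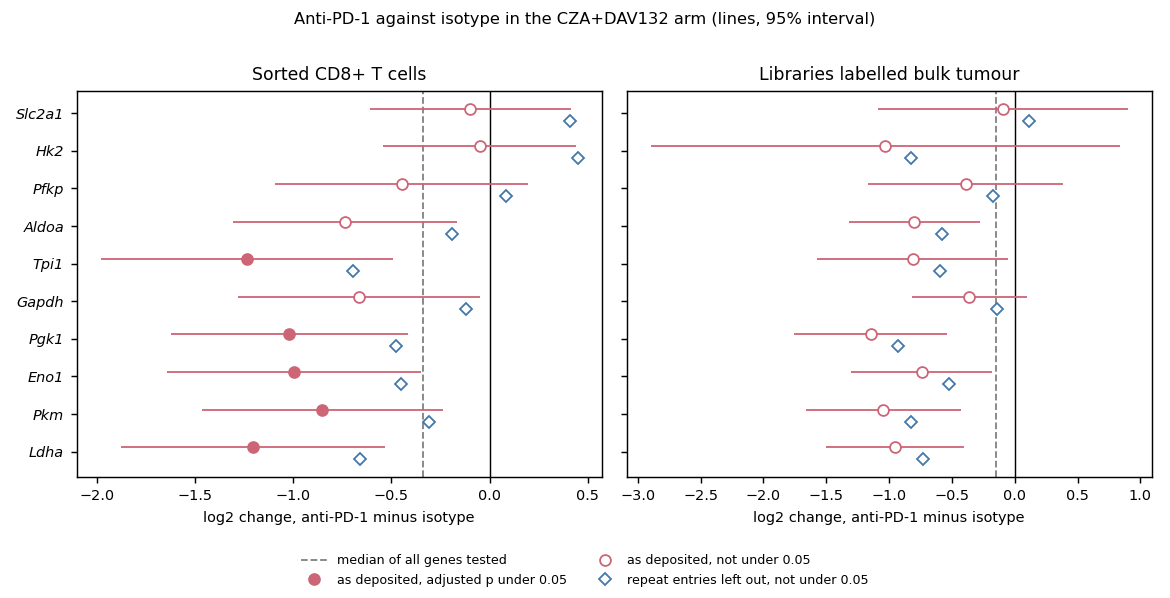
Horizontal axis, log2 change of anti-PD-1 minus isotype in the CZA+DAV132 arm for each gene, in CD8+ T cells (left) and libraries labelled bulk tumour (right); lines, 95% intervals on TPM as deposited; filled circles, adjusted p under 0.05; diamonds, repeat entries left out. Ldha moved from -1.21 to -0.66 in the CD8+ T cells and stayed below the median of all genes.

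Marker genes moved in the same comparison. All 12 macrophage and monocyte markers had negative log2 changes in the CD8+ T cells, 5 of 12 passed as lower beside 19.4% of all genes, and their summed level ranged from 77.2 to 793 TPM under isotype and from 56.0 to 295 TPM under anti-PD-1. The 12 T cell markers also all had negative log2 changes, with a median of -0.66 beside -0.34 over all genes. Of these 12 markers, 2 passed as lower, a share near that of all genes. Their sum ranged from 11685 to 14728 TPM under isotype and from 3968 to 13238 TPM under anti-PD-1. The summed endothelial markers, nearly all of it Pecam1, which T cells and other leukocytes can also express, lay at 217 to 382 TPM under isotype and 432 to 2468 TPM under anti-PD-1, without overlap. Pecam1 rose (log2 change 1.74, adjusted p = 0.0406, limma), the other endothelial marker tested did not pass, and Cdh5, a defining gene of these cells, was listed at 0 in 12 of the 20 libraries. The summed keratinocyte markers lay at 2.68 to 4.77 TPM under isotype and 0.482 to 1.81 TPM under anti-PD-1, also without overlap. Krt10, the only one of that list tested, fell (-1.07, adjusted p = 0.00845, limma), while Krt5 was listed at 0 in all 20 libraries, Krt1 in 19 and Krt14 in 17. Calls among the other lists were lower for Il2ra, 1 of 5 markers of CD4 and regulatory T cells, Ighm, 1 of 3 of B and plasma cells, Klrb1c, 1 of 3 of NK cells, and Ccl22 among 6 of dendritic cells, where Siglech rose. None of 9 fibroblast, 3 neutrophil and 4 erythroid markers tested passed, and the erythroid sum was 113 to 551 TPM under isotype and 111 to 841 TPM under anti-PD-1. In the CZA arm all 12 macrophage and monocyte markers were negative too, with a median log2 change of -1.69 against -1.33 in the CZA+DAV132 arm. There 0 of 12 passed, beside 0.0155% of all genes, and 1 of the 12 T cell markers was negative. The part of all these cell types in the result was not tested.

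The share of the 10 genes in all TPM gives the same comparison as a sum. It was 0.473% ± 0.065 (SD, n = 5) in CZA+DAV132 with isotype and 0.288% ± 0.126 with anti-PD-1, and without the repeat entries 0.504% ± 0.059 and 0.417% ± 0.087. Gapdh made up 40.1% ± 4.6 of that sum under isotype and 45.4% ± 4.4 under anti-PD-1 (n = 5 each). Ratios to Gapdh, taken after adding 1 TPM to both genes, depend little on the total of a library. For low genes such as Hk2 and Slc2a1, however, the added 1 TPM raises the ratio somewhat in libraries rich in repeat entries. The log2 ratio of Ldha to Gapdh was 0.54 lower under anti-PD-1 than under isotype (-1.96 ± 0.33 against -1.42 ± 0.35, SD, n = 5 each; exact permutation p = 0.0397, two-sided, adjusted p = 0.222 over 36 ratios). For Pgk1 the difference in log2 ratio was -0.36 (exact permutation p = 0.198) and for Pkm -0.19 (exact permutation p = 0.270). In all, 6 of 9 ratios were lower. The point estimates were higher for Hk2 at 0.61 (exact permutation p = 0.230), Slc2a1 at 0.57 (exact permutation p = 0.0556) and Pfkp at 0.22 (exact permutation p = 0.111). No ratio had an adjusted p under 0.05 in any comparison. However, the smallest p that 5 against 5 libraries allow, 0.00794, becomes 0.286 for a lone ratio among 36, so a single ratio could not have passed. These ratios were chosen after seeing the data.

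The lists of neighbouring pathways were read in the same CD8+ T cell comparison. Among other glycolysis enzymes and glucose transporters, 3 of 18 tested genes fell, beside 19.4% of all genes: Slc2a6, a transporter of lysosomes, Eno3, an enolase best known from muscle, and Pgam1, the phosphoglycerate mutase. In lactate and pyruvate handling, 6 of 13 fell and 1 rose, beside 19.4% and 4.12% of all genes. The pentose phosphate branch, which makes NADPH and ribose from glucose, had 3 of 7 lower (Pgls, Taldo1 and Tkt), the regulators 1 of 15 (Arrdc4) and the other hypoxia-induced genes 3 of 15. The median log2 changes of these 5 lists were -0.23, -0.77, -0.69, -0.14 and -0.39, beside -0.34 over all genes.

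Mpc1 and Mpc2, which together form the carrier of pyruvate into mitochondria, had some of the largest falls. Mpc1 stood at 172, 180, 205, 146 and 274 TPM under isotype and at 38.6, 72.5, 96.8, 26.8 and 99.9 TPM under anti-PD-1, a log2 change of -1.67 (SE 0.35, adjusted p = 0.00715, limma). Mpc2 stood at 342, 292, 275, 259 and 286 TPM under isotype and at 99.4, 148, 162, 48.9 and 211 TPM under anti-PD-1, a log2 change of -1.26 (SE 0.29, adjusted p = 0.00844, limma). For both genes every anti-PD-1 library lay below every isotype library. Also lower were Pdk3, a kinase that inhibits pyruvate dehydrogenase (-1.30), Bsg, the chaperone of lactate transporters (-1.0), and Pdhb (-0.92) and Dlat (-0.82), subunits of the pyruvate dehydrogenase complex. Pdk4, another of its inhibitory kinases, was the gene that rose, by 1.48 (adjusted p = 0.0106, limma), from 0.327 to 1.21 TPM under isotype to 1.00 to 8.58 TPM under anti-PD-1, where library 19 was the highest and the groups overlapped.

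Hilpda, a hypoxia-induced protein of lipid droplets, fell most among the genes of the 5 lists. It stood at 232, 99.8, 147, 100 and 199 TPM under isotype and at 24.8, 51.1, 53.8, 19.8 and 40.8 TPM under anti-PD-1, with no overlap. The log2 change of Hilpda was -2.02 (SE 0.37, adjusted p = 0.00520, limma). Slc2a6 stood at 1.10 to 2.80 TPM under isotype and 0.0341 to 0.666 TPM under anti-PD-1, close to the filter on low values, with a log2 change of -1.12 (adjusted p = 0.00653, limma).

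Of the 17 list genes called, 7 passed with the repeat entries left out and 5 without libraries 16 and 19. Those that passed in both were Hilpda (-1.49 and -1.59), Mpc1 (-1.14 and -1.10), Mpc2 (-0.72 and -0.75) and Slc2a6 (-1.09 and -0.98). The pyruvate carrier genes thus passed under both treatments of the repeat-rich libraries, while Ldha did not, with changes of -0.66 and -0.83. The difference between these genes was not tested.

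**Figure D3:**
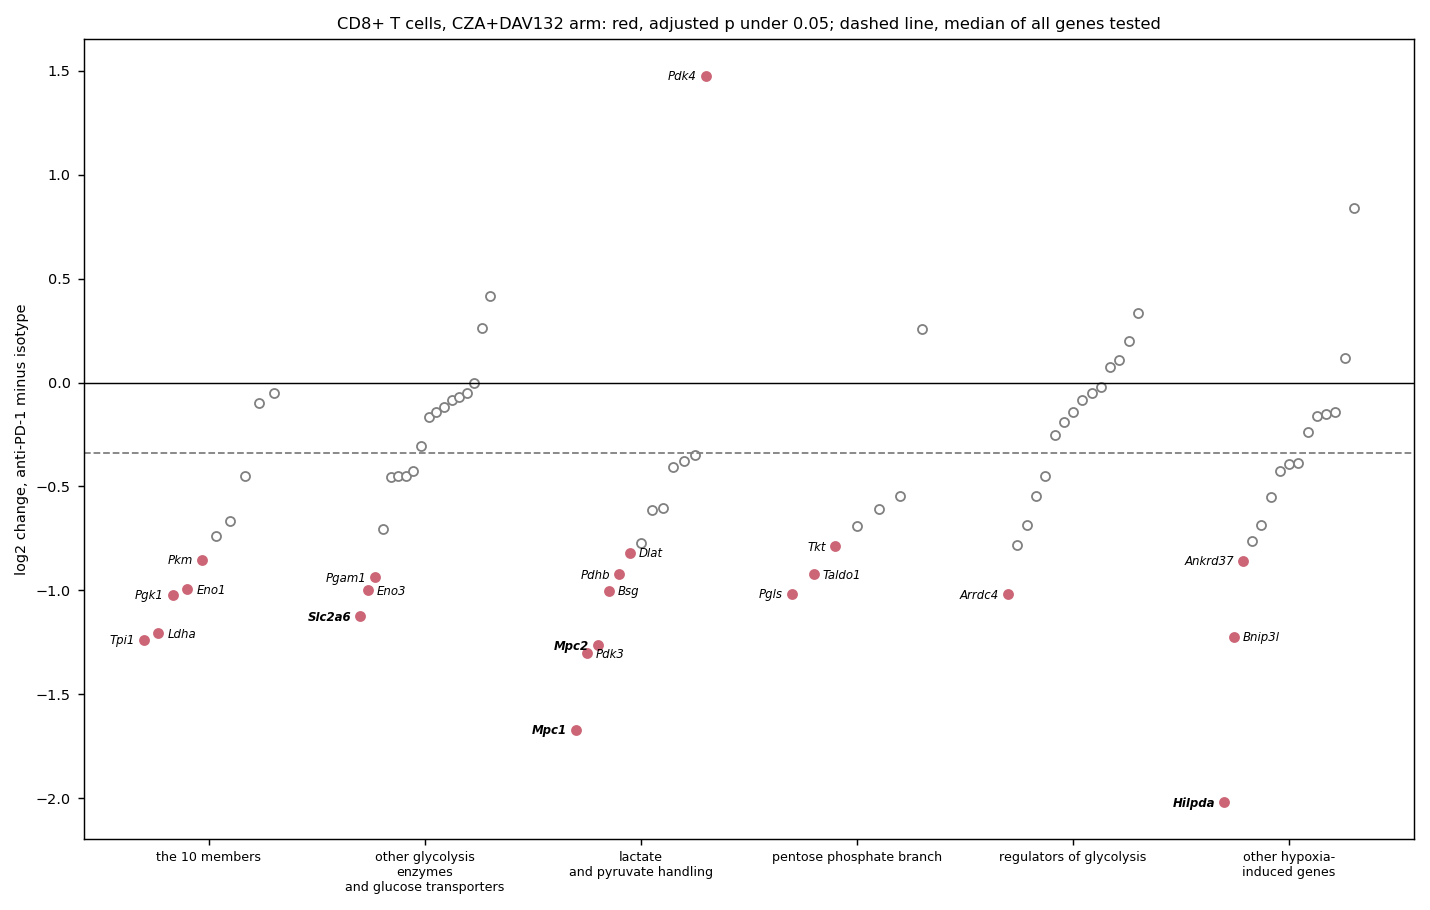
Vertical axis, log2 change of anti-PD-1 minus isotype in the sorted cells of the CZA+DAV132 arm; each point is a gene, by list along the horizontal axis; filled red points had an adjusted p under 0.05, and bold names those that passed also with repeat entries left out and without libraries 16 and 19. Hilpda, at -2.02, and Mpc1, at -1.67, lay lowest, and Pdk4, at 1.48, highest.

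The partner genes of the same steps did not pass. Slc2a3, the transporter GLUT3, had a log2 change of -0.30 (95% interval -0.89 to 0.28), Hk1, the constitutive hexokinase, of -0.16 (-0.68 to 0.35), Pfkl, the liver-type phosphofructokinase, of -0.45 (-1.06 to 0.16), and Ldhb, the other lactate dehydrogenase subunit, of -0.61 (-1.36 to 0.13). The lactate exporters Slc16a3 and Slc16a1 had -0.35 and -0.38, the hypoxia factor Hif1a -0.45, the glucose uptake inhibitor Txnip -0.05, the kinase Pdk1 -0.41, and the isomerase Gpi1, which follows hexokinase, -0.70 (adjusted p = 0.0745, limma). In levels, the CD8+ T cells held about as much Slc2a3 (median 11.6 TPM) and Hk1 (11.2 TPM) as their partners Slc2a1 (15.0 TPM) and Hk2 (8.54 TPM). Pfkl (11.2 TPM) and Ldhb (4.25 TPM) lay far below Pfkp and Ldha.

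In the libraries labelled bulk tumour, the same comparison of anti-PD-1 with isotype in the CZA+DAV132 arm gave 0 calls among the 10 genes, beside 0.24% of 13326 genes tested. The point estimates were again all negative. The median log2 change was -0.80 over the 10 genes and -0.15 over all genes. At an unadjusted p under 0.05 stood 6 of the 10 genes and 10.3% of all genes. With limma's array weights, which weigh libraries by their scatter, 1 of the 10 passed, Pgk1. How many of all genes passed with these weights is not given here, so this count cannot be read as particular to the 10 genes.

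Pgk1 stood at 213, 330, 359 and 235 TPM in the 4 isotype libraries and at 104, 122, 101, 169 and 140 TPM under anti-PD-1. The groups did not overlap. Its log2 change was -1.15 (SE 0.29, adjusted p = 0.0891, limma), and -0.93 with the repeat entries left out. Pkm stood at 309, 249, 324 and 268 TPM under isotype and at 144, 96.8, 120, 171 and 174 TPM under anti-PD-1, a log2 change of -1.05 (SE 0.30, adjusted p = 0.130, limma). Ldha stood at 725, 610, 805 and 494 TPM under isotype and at 334, 273, 235, 456 and 431 TPM under anti-PD-1, a log2 change of -0.95 (SE 0.26, adjusted p = 0.121, limma). Neither Pkm nor Ldha overlapped between the groups, although neither passed the test.

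Aldoa was the other gene without overlap, at 664, 687, 708 and 646 TPM under isotype and 409, 237, 307, 557 and 532 TPM under anti-PD-1, a log2 change of -0.80 (SE 0.25, adjusted p = 0.173, limma). Thus 4 of the 10 genes had separate groups (Aldoa, Pgk1, Pkm and Ldha), beside 6.49% of all genes tested. Tpi1 (-0.81), Eno1 (-0.74), Gapdh (-0.36), Pfkp (-0.39) and Slc2a1 (-0.10) did not pass and overlapped. T026, the library rich in repeat entries, was the lowest of all 19 for 4 of the 10 genes and T023, whose repeat share was 0.625%, for 3.

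**Figure D4:**
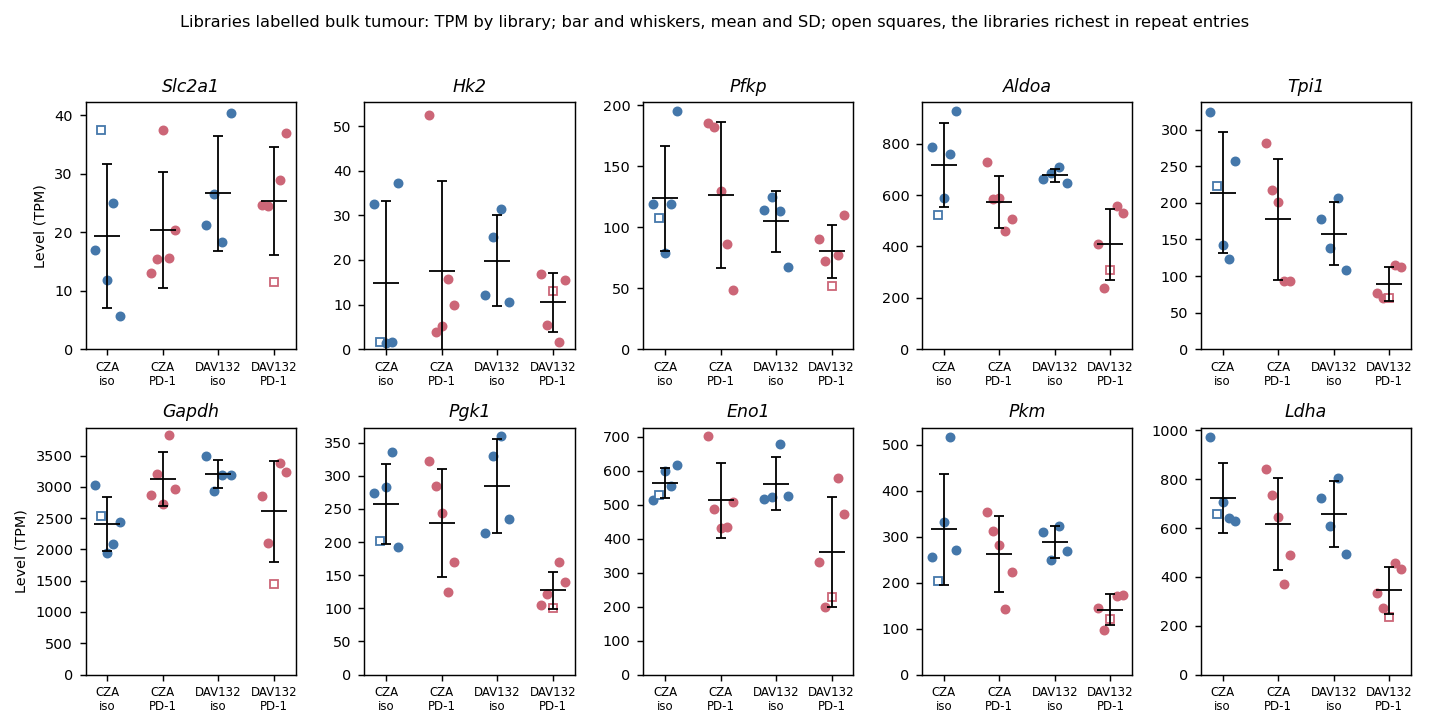
Level in TPM (vertical axes, from 0) of each of the 10 genes in the 19 libraries labelled bulk tumour, by group, where DAV132 stands for CZA+DAV132; points are libraries, bars and whiskers the mean and SD (whiskers end at 0), and open squares T985 and T026. Pgk1, at 101 to 169 TPM, lay below its isotype group in all 5 libraries of CZA+DAV132 with anti-PD-1.

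Ratios to Gapdh in the CZA+DAV132 arm of these libraries were lower under anti-PD-1 for 8 of 9 genes, and 8 of 9 were lower in the CZA arm too. The log2 ratio of Pkm to Gapdh was -3.48 ± 0.13 (SD, n = 4) under isotype and -4.16 ± 0.33 (SD, n = 5) under anti-PD-1, a difference of -0.68 with no overlap (exact permutation p = 0.0159, two-sided, adjusted p = 0.163). For Pgk1 the difference in log2 ratio was -0.79 (exact permutation p = 0.0317) and for Ldha -0.59 (exact permutation p = 0.0238), both with an adjusted p of 0.163. Gapdh made up 53.7% ± 3.5 (n = 4) of the summed TPM of the 10 genes under isotype and 61.9% ± 3.8 (n = 5) under anti-PD-1. The summed level of the macrophage and monocyte markers ranged from 54.5 to 453 TPM under isotype and from 65.6 to 149 TPM under anti-PD-1, with 0 of 12 called and 12 of 12 log2 changes negative. Among the T cell markers 0 of 12 were called and 11 of 12 log2 changes were negative, with a median of -0.45 beside -0.15 over all genes. The endothelial markers summed to 816 to 1432 TPM under isotype and 1757 to 5831 TPM under anti-PD-1, without overlap, with 0 of 2 tested genes called and Cdh5 listed at 0 in 16 of the 19 libraries. In the CZA arm of these libraries 10 of 12 macrophage and monocyte markers were negative, with a median of -1.15 against -0.77 in CZA+DAV132. There 2 of 12 T cell markers were negative, and 0 of either list passed, beside 0.285% of all genes. The part of all these cell types in the result was not tested.

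Hk2 differed most between the libraries labelled bulk tumour. It stood at 32.7, 1.54, 1.38, 1.66 and 37.4 TPM in CZA with isotype and at 52.6, 3.76, 5.27, 15.8 and 9.95 TPM in CZA with anti-PD-1. In the CZA+DAV132 arm it stood at 12.1, 25.2, 31.5 and 10.5 TPM under isotype and at 16.9, 5.51, 13.1, 1.53 and 15.4 TPM under anti-PD-1. Libraries of the same group thus lay far apart, and the coefficient of variation over all 19 was 92.7%, against 21.2% for Gapdh. The log2 change under anti-PD-1 was 0.77 (95% interval -0.99 to 2.52) in the CZA arm and -1.03 (-2.90 to 0.83) in the CZA+DAV132 arm. In the sorted CD8+ T cells Hk2 varied less, between 4.38 and 14.5 TPM (coefficient of variation 27.6%).

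With CZA alone, anti-PD-1 against isotype gave 0 calls among the 10 genes in the CD8+ T cells, beside 0.0155% of all genes, with a median log2 change of -0.33 over the 10 genes and -0.02 over all genes. At an unadjusted p under 0.05 stood 0 of the 10 genes and 5.11% of all genes. Ratios to Gapdh were lower under anti-PD-1 for 8 of 9 genes, against 6 of 9 in the CZA+DAV132 arm. Ldha stood at 574, 743, 994, 905 and 1286 TPM under isotype and at 732, 505, 336, 1070 and 882 TPM under anti-PD-1, with wide overlap and a log2 change of -0.41 (95% interval -1.08 to 0.26). Tpi1 had -0.51 (-1.25 to 0.24), Gapdh 0.04 (-0.57 to 0.66) and Slc2a1 0.21 (-0.31 to 0.72). The intervals of Ldha and Tpi1 still held falls as large as those of Pgk1, Eno1 and Pkm in the CZA+DAV132 arm. The interval of Tpi1 also held its own fall there, while that of Ldha did not. Those of Gapdh and Slc2a1 did not reach so far.

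Hk2 came closest to a difference in this comparison. It stood at 9.60, 10.6, 7.53, 8.38 and 14.5 TPM under isotype and at 5.99, 5.96, 6.42, 10.3 and 7.16 TPM under anti-PD-1, with library 9 above the rest of its group and a log2 change of -0.44 (95% interval -0.93 to 0.05). The log2 ratio of Hk2 to Hk1 was -0.15 ± 0.21 (SD, n = 5) under isotype and -0.80 ± 0.20 under anti-PD-1, a difference of -0.66. The groups did not overlap, and the exact permutation p of 0.00794, two-sided, was the smallest the design allows, with adjustment over 16 ratios giving 0.127. In the CZA+DAV132 arm the same difference was 0.11 (exact permutation p = 0.746). An adjusted p of 0.127 is also the lowest that a lone ratio among 16 can reach, so the absence of passing ratios in either set says nothing of the single pairs.

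The CZA arm of the libraries labelled bulk tumour also gave 0 calls among the 10 genes, beside 0.285% of all genes, with a median of -0.19 over the 10 genes and 0.25 over all genes. At an unadjusted p under 0.05 stood 0 of the 10 and 13.1% of all genes. Gapdh had a log2 change of 0.38 (95% interval -0.05 to 0.81) and Ldha of -0.27 (-0.78 to 0.25). Gapdh made up 44.8% ± 4.3 of the sum of the 10 genes under isotype and 55.5% ± 8.8 under anti-PD-1 (n = 5 each). Of the 9 ratios to Gapdh, 8 were lower under anti-PD-1. The difference in log2 ratio was -0.65 for Ldha and -0.69 for Aldoa (exact permutation p = 0.0317 and adjusted p = 0.163 for each). Lower point estimates of these ratios were thus found in both arms, and no ratio passed in either. All 9 ratios share Gapdh, whose own log2 change was 0.38 here, so they are not independent.

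The difference between the arms in the response to anti-PD-1 was tested as an interaction. None of the 10 genes passed in the CD8+ T cells, where 0% of all genes passed, or in the libraries labelled bulk tumour, where 0.045% did. The unadjusted p was under 0.05 for 0 of the 10 genes in the CD8+ T cells, beside 15.7% of all genes. In the other set this held for 2 of the 10, beside 10.3% of all genes. The interaction of Ldha was -0.79 on the log2 scale (95% interval -1.74 to 0.16) in the CD8+ T cells and -0.68 (-1.44 to 0.07) in the other set, and that of Pgk1 was -0.65 (-1.51 to 0.20) and -0.93 (-1.77 to -0.09, adjusted p = 0.452, limma). The calls in the CZA+DAV132 arm alone therefore do not show a response that differs between the arms.

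Under anti-PD-1, the CZA+DAV132 arm was compared with the CZA arm, a comparison that shares the anti-PD-1 libraries of CZA+DAV132 with the one above. In the CD8+ T cells 0 of the 10 genes passed, beside 0.0386% of all genes. The median log2 change was -0.72 over the 10 genes and -0.40 over all genes, and an unadjusted p under 0.05 was reached by 7 of 10 and by 33.5% of all genes. Ldha had the smallest adjusted p, with a log2 change of -1.10 (SE 0.32, adjusted p = 0.0683, limma), and its CZA libraries, at 336 to 1070 TPM, overlapped those of CZA+DAV132 at 166 to 421 TPM. Without library 20 of CZA+DAV132, 8 of the 10 passed, without library 18 there were 4, and without library 8 of CZA 3. How many of all genes passed in these fits is not given here, so the counts cannot be read as particular to the 10 genes. Of the 5 lists, Hilpda alone passed, at -2.08 (SE 0.37, adjusted p = 0.0329, limma), and it no longer passed with the repeat entries left out (-1.64, adjusted p = 0.0563).

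The libraries labelled bulk tumour had 0 of the 10 genes passing under anti-PD-1, where 0% of all genes did, with a median of -0.57 over the 10 genes and -0.19 over all genes. At an unadjusted p under 0.05 stood 6 of the 10 and 7.58% of all genes, led by Ldha at -0.82 (adjusted p = 0.348, limma) and Pkm at -0.85 (adjusted p = 0.388, limma).

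Under isotype, the arms differed in none of the 10 genes by this test. In the CD8+ T cells 0 of 10 passed beside 0% of all genes, with a median of -0.21 against -0.06 over all genes. An unadjusted p under 0.05 was reached by 0 of 10 and by 2.47% of all genes. Log2 changes lay between -0.37 for Pfkp and 0.14 for Slc2a1. The log2 ratio of Pfkp to Gapdh was -4.89 ± 0.20 in CZA+DAV132 and -4.41 ± 0.18 in CZA (SD, n = 5 each), a difference of -0.48 without overlap (exact permutation p = 0.00794, two-sided, adjusted p = 0.222). The other set had 0 of 10 passing beside 0.113% of all genes, and a median of -0.03 against 0.21. There 0 of 10 and 10.9% of all genes had an unadjusted p under 0.05. The log2 ratio of Ldha to Gapdh there was -2.30 ± 0.29 (SD, n = 4) in CZA+DAV132 and -1.74 ± 0.21 (SD, n = 5) in CZA, without overlap (exact permutation p = 0.00794, two-sided, adjusted p = 0.163).

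The 10 genes did not vary as one across libraries. Each gene's log2 level was centred and scaled over the libraries of a set and set against the mean profile of the 10, and the root mean square distance was taken in SD units. In the CD8+ T cells Aldoa ranked 1 of 7547 genes at 0.24, Pkm 3 and Eno1 13, while Slc2a1 ranked 6058 at 1.03 and Hk2 6210 at 1.06. The genes outside the 10 that lay nearest were Gatad1, Adprh, Cops8, Diablo and Mmadhc, at 0.24 to 0.25. In the libraries labelled bulk tumour Ldha ranked 1 of 8717 at 0.36 and Aldoa 7, while Hk2 ranked 3366 and Slc2a1 6635, and the nearest others were Eif4a1, Iqgap1, Hmgb1, Lcp1 and Rpl4. The members are part of the mean they were compared with, and all values of a library share its repeat share, so these distances describe and do not test. Library 19 was the lowest of 20 for 9 of the 10 genes in the CD8+ T cells, and library 5 of CZA with isotype, whose repeat share was 0.342%, the highest for 7.

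By GENCODE M21, an annotation of the GRCm38 build the submitters name, the genes lie on 6 chromosomes: Slc2a1 and Eno1 on 4, Hk2, Tpi1 and Gapdh on 6, Aldoa and Ldha on 7, Pkm on 9, Pfkp on 13 and Pgk1 on X. Tpi1 (chr6:124810586-124814296) and Gapdh (chr6:125161715-125166467) lie close together. The tables also list named copies of Gapdh (2), Ldha (2) and Pgk1 (1), so reads of these genes could have been shared with the copies, and their levels are uncertain to that extent.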

How the data were processed

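Total RNA (300 ng) was depleted of ribosomal RNA and made into strand-specific libraries, per the labels' protocols. The authors deposited TPM per gene symbol, 1 table a set. Kallisto 0.45 and GRCm38 are named in the submitters' processing notes, and the annotation used is not given in the sources used here. Of the symbols, 27787 were matched to GENCODE M21. TPM gives no depth, so no counting error is stated.

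Each table was tested alone. A gene entered limma 3.58.1 (R 4.3.3) if 4 or more libraries of the set held 1 TPM or more, on log2(TPM + 1), with 4 group means, a mean-variance trend and no block. P-values were two-sided and Benjamini-Hochberg adjusted over all genes tested, and called under 0.05. The method was tested on simulated data. These were drawn gene by gene with no repeat share common to a library, so they do not bear on the repeat-rich libraries. Ratios, with 1 TPM added to both genes, were tested by exact permutation. Repeat entries were listed genes of at least 1000 TPM in a library whose transcripts were at least 30% satellite or 50% simple repeat. As alternatives, fits used the compared groups alone, 0.1 as pseudocount, no filter, a mean of at least 5 TPM, median-ratio scaling, repeat entries left out, array weights, and libraries left out.

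The members, lists, markers and tests were chosen with earlier results of these data known. Genes named by rule were the 10 members, 11 partner genes, up to 5 called list genes of smallest p in a contrast and the 5 nearest profiles in a set. Other called list genes are named after their values were seen. Promoter windows are RefSeq's, on GRCm38.p6.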

Additional observations from a re-analysis of the deposited data

Results flagged for a closer look

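In 8 of 80 combinations of gene and group, a library stood apart from the rest of its group by Dixon's test of the gap at the end of the range. For normally distributed values chance flags about 1 in 20 groups, and genes of a library are not independent. The test was run on TPM rather than on log2 values, a scale on which high values stand out more. All 8 were the highest library of their group.

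Library 15 of CZA+DAV132 with isotype accounted for 3 of them in the CD8+ T cells, at 314 TPM of Pgk1, 345 TPM of Pkm and 1052 TPM of Ldha. Its repeat share was 2.32%, the lowest of its group. This library belongs to the group against which the anti-PD-1 libraries were read, and without it 1 of the 10 genes passed. In CZA with anti-PD-1, library 9 held 10.3 TPM of Hk2.

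In the libraries labelled bulk tumour, T982 of CZA with anti-PD-1 held 52.6 TPM of Hk2 and 702 TPM of Eno1. T027 of CZA+DAV132 with isotype held 678 TPM of Eno1, and T983 of CZA with isotype held 974 TPM of Ldha. The part of cell content or depth in these values was not tested.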

How the results depend on the processing

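No called gene of the 10 changed direction under any alternative run. With anti-PD-1 set against isotype in the sorted cells of the CZA+DAV132 arm, 5 of the 10 genes passed. The count was 2 with only the groups compared, 3 with median-ratio scaling, 0 with the repeat entries left out and 0 without libraries 16 and 19, the last chosen after seeing the data. Leaving out each library in turn gave 1 to 7. For CZA+DAV132 against CZA under anti-PD-1 in the CD8+ T cells, 0 passed, against 1 with a mean of at least 5 TPM and 1 with array weights, and 0 to 8 with a library left out. The share of all genes passing in the leave-one-out fits is not given here. For anti-PD-1 in the CZA+DAV132 arm of the libraries labelled bulk tumour, 0 passed, against 1 with array weights. The counts of the other comparisons and of the interactions stayed at 0 in every alternative run. In leave-one-out fits the group with a library left out shares the spread of the other groups. No paired analysis was possible because the groups share no replicate numbers. TPM holds no depth, so counting error could not be given for any gene.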

Other observations

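Hilpda, the lipid droplet protein that fell in the CD8+ T cells, was also measured in the libraries labelled bulk tumour. In CZA it stood at 45.2, 52.7, 3.28, 1.24 and 31.4 TPM under isotype and at 90.5, 47.8, 34.8, 68.4 and 44.2 TPM under anti-PD-1, a log2 change of 1.87 (95% interval 0.31 to 3.43, adjusted p = 0.293, limma). In CZA+DAV132 it stood at 97.6, 23.99, 119 and 25.5 TPM under isotype and at 21.4, 10.1, 15.8, 10.8 and 42.5 TPM under anti-PD-1, a log2 change of -1.52 (-3.17 to 0.13, adjusted p = 0.553, limma). The groups overlapped in both arms. The interaction of arm and antibody was -3.39 (adjusted p = 0.341, limma) there and -2.24 (adjusted p = 0.290, limma) in the CD8+ T cells. It passed in neither set.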
